A study of Papio hamadryas with 12 samples.

Results

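The genes described here are those that were read in every library of the series. A gene was kept where its expected counts, summed over its transcripts, came to 10 or more in each of the 12 libraries, which held for 4873 of the 27533 genes in the files. The 2 most abundant genes are among the 4873 and were left out of every library total and of the fit, so 4871 genes were tested. The rule was set to leave out genes that are read in only 1 or 2 libraries. For these broadly expressed genes the change from the chow diet to the high-cholesterol, high-fat (HCHF) diet in high LDL-C baboons was compared with the same change in low LDL-C baboons. That difference between 2 changes is the interaction of diet and LDL-C phenotype, and in the text it is called the difference in response.

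The RNA came from the buffy coat of 6 adult baboons (Papio hamadryas), 3 with low and 3 with high plasma LDL-C, and each animal gave a library on chow and another after 7 weeks on the HCHF diet. Fat made up 4% of the calories of chow and 40% of those of the HCHF diet, and the cholesterol content was 0.03 and 1.7 mg per kcal. The low LDL-C baboons are named L1, L2 and L3 and the high LDL-C baboons H1, H2 and H3, numbers that carry no order, and the study chose low and high animals as half-sibs, which the sample labels do not match to each other. No genotype, sex or age is given in the labels, the labels name no treatment other than the diet, and no group stayed on chow for 7 weeks, so the diet and the passage of time cannot be told apart. In the labels each low LDL-C baboon shares both of its index sequences with a high LDL-C baboon (L1 with H2, L2 with H1, L3 with H3), and no pool or lane is given, so a batch was not tested.

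Low-density lipoprotein carries cholesterol in the plasma, and baboons, like humans, differ in how far plasma LDL-C climbs on a diet rich in fat and cholesterol. The buffy coat is the thin layer between plasma and red cells in spun blood and holds white blood cells and platelets, with some red cells carried over. White cells take up and export cholesterol through membrane receptors and transporters, and genes read in every sample of such a mixture are typically those that many blood cells use, among them genes for translation, energy supply and the cytoskeleton. In RNA from a mixture of cells, fewer cells of a type and less RNA per cell cannot be told apart. The files give Ensembl gene IDs of the baboon assembly PapAnu2 with no gene symbols, so lists of cell type markers, lipid genes and other pathways could not be matched, the labelled cell type was not checked against its markers, and genes are named by position and, for 4 of them, by ID.

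The libraries held 3434628 to 8518137 expected counts. The 2 most abundant genes took 16.3% to 89.3% of them, which left 915087 counts for all other genes in L2 on chow and 3872759 in L1 on chow. That share moved with diet in opposite ways, up from 16.8% to 49.2% in L1 and down from 89.3% to 63.6% in L2 and from 52.2% to 16.3% in H3. It went from 63.9% to 59.1% in L3, from 51.7% to 43.5% in H1 and from 55.6% to 47.9% in H2. The library of L2 on chow also set membership. It held the lowest count of 4186 (85.9%) of the members, and 6769 genes reach 10 counts in each of the other 11 libraries. Levels below are CPM, the count of a gene per 1e6 counts of the library total without the 2 genes, scaled by TMM factors of 0.603 (L2 on chow) to 1.20, and the part of these library differences in any result was not tested.

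No broadly expressed gene passed the test for a difference in response between high and low LDL-C baboons. The test was edgeR's quasi-likelihood test with a term for each baboon, and a call needed both an unadjusted p below 0.05 and, after Benjamini-Hochberg adjustment over the 12586 genes fitted, an adjusted p below 0.20. Of the 4871 members 0 were called, beside 33 (0.262%) of all genes fitted, and all 33 were higher in high LDL-C baboons (0.262% higher). Those 33 genes lay outside the rule, with 10 counts in only 1 to 3 libraries and fitted differences of 4.91 to 15.55 on the log2 scale. The lowest adjusted p of a member was 0.262. With no difference in any gene, about 244 members would be expected at an unadjusted p under 0.05. There were 73 such members (1.5%), against 4.69% of all genes fitted. Among them 39 had a higher response in high LDL-C baboons, where 3.69% of all genes did, and 34 a lower response, where 0.993% did. DESeq2 called 1 member, limma on quantile-normalized values called 0 with 94 at an unadjusted p under 0.05, and limma's voom with weights for library quality called 23 with 492 at that level. With no filter on low genes edgeR called 12 members, and without L2 it called 10. Over all genes these settings called 4 (DESeq2), 0 (quantile), 251 (voom), 313 (no filter) and 76 (without L2).

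Differences in response were small for most members. The median fitted difference was 0.03 on the log2 scale, with quartiles at -0.31 and 0.37, and the median over all genes fitted was 0.04. Differences of 2-fold or more were fitted for 131 members in the higher direction and 112 in the lower. The 3 baboons of each phenotype gave a median standard error of 0.53 and a median 95% interval of 1.16 on either side of a difference. That interval excluded a 4-fold difference in either direction for 4035 members (82.9%) and a 2-fold difference for 30 (0.616%). Differences of up to 2-fold could therefore not be excluded for most of these genes. The intervals are not adjusted for the number of genes, and none of the members with a fitted difference of 2-fold or more was called.

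Neither diet response on its own passed the test in any member with all 6 baboons and the filter on low genes. In low LDL-C baboons edgeR called 0 of the 4871 members and 0% of all genes in either direction. At an unadjusted p under 0.05, 65 members were higher on the HCHF diet and 123 were lower (3.86% together), against 1.53% higher and 4.16% lower, 5.68% together, of all genes. In high LDL-C baboons 0 members were called, beside 0.175% of all genes, all of them higher on the HCHF diet (0.175%). The unadjusted counts were 44 higher and 59 lower (2.11% together), against 2.87% and 1.49% of all genes, 4.36% together. The lowest adjusted p of a member was 0.434 for the low and 0.604 for the high response. For the low response, DESeq2 called 6 members, limma on quantile-normalized values 0 and voom with quality weights 654, and edgeR called 565 without L2. For the high response these counts were 0 in each, and edgeR called 1 without L1. With no filter edgeR called 23 members for the low and 16 for the high response. No share over all genes is given for the calls under these other settings, so they describe the settings and not the members.

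**Figure D1:**
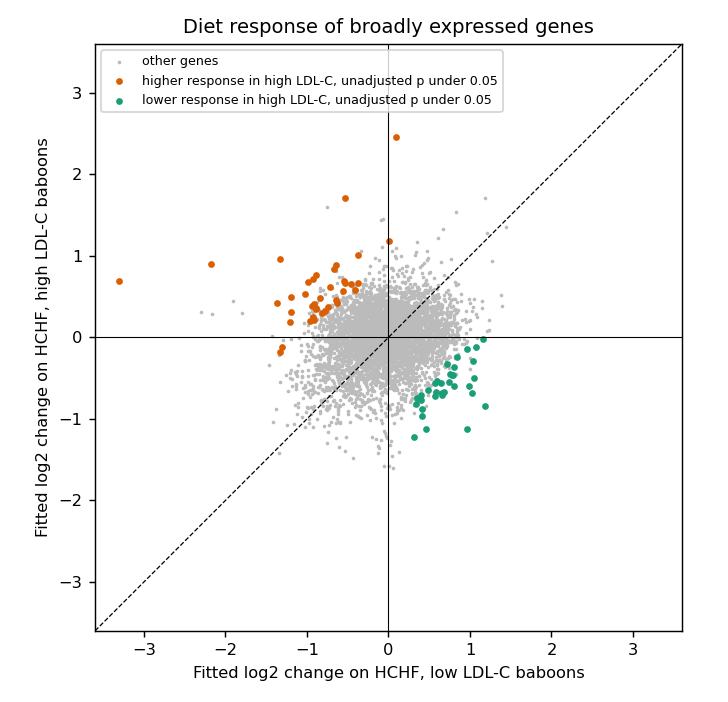
Fitted log2 change on the HCHF diet in low (x axis) and high (y axis) LDL-C baboons for the 4871 broadly expressed genes, with the dashed line where both are equal. The 39 orange and 34 green genes, those at an unadjusted p under 0.05 for the difference, lie mostly in the quadrants where the 2 changes have opposite signs, and none of them passed an adjusted p under 0.20.

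Most of the 73 genes had fitted responses of opposite sign in the 2 phenotypes. Of the 39 with a higher response in high LDL-C baboons, 35 had a fitted change below 0 in the low and above 0 in the high, and the medians over the 39 were -0.88 and 0.53. All 34 of the others were above 0 in the low and below 0 in the high, with medians of 0.70 and -0.62. The change in low LDL-C baboons was the larger of both in 27 of the 39 and in 20 of the 34. Read by phenotype, 19 of the 39 had an unadjusted p under 0.05 for the low response alone, 6 for the high alone, 1 in both and 13 in neither, and of the 34 these counts were 11, 6, 1 and 16. These genes were picked for their difference, so the opposite signs describe them and are no separate result.

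The changes of single baboons were also compared, as log2 of CPM on the HCHF diet over CPM on chow. The 3 changes of the high and the 3 of the low LDL-C baboons did not overlap for 309 members (6.34%), beside 8.60% of all genes fitted (with 0.5 CPM added). If baboons could be swapped between phenotypes with no effect, a share of 10% would be expected. The high LDL-C baboons were above in 155 of the 309 and below in 154, where the shares of all genes were 3.86% and 4.74%. This balance moved with the scaling, to 108 above and 151 below with no TMM factor. With totals that also leave out the mitochondrial chromosome the counts were 40 and 313. In 43 members every high LDL-C baboon went up and every low LDL-C baboon down, and in another 43 the reverse held. All 6 baboons went up in 120 members and down in 119. No share over all genes was taken for these counts of signs, so they are a description only. Among the 73 genes, 57 did not overlap, 31 in the higher and 26 in the lower direction, and both counts come from the same contrast. An exact permutation test over 3 and 3 baboons cannot give a two-sided p under 0.10. It gave 0.10 for each of the 20 genes described next, a value fixed in advance by choosing genes without overlap.

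The 20 genes are those with the 10 highest and the 10 lowest fitted differences among members at an unadjusted p under 0.05 whose changes did not overlap. The highest difference was that of ENSPANG00000005809, on chromosome 5 from 144075253 to 144086657. In low LDL-C baboons its level went from 1342 to 7.05 CPM in L1, from 41.7 to 11.7 in L2 and from 10.6 to 6.14 in L3. In high LDL-C baboons it went from 4.77 to 5.01 CPM in H1, from 7.27 to 19.4 in H2 and from 4.93 to 6.98 in H3. The library of L1 on chow stands alone, with 187 times the median of the 12 libraries, and the other 11 lie between 4.77 and 41.7 CPM. The fitted difference was 4.0 on the log2 scale (SE 1.46, unadjusted p = 0.018, edgeR adjusted p = 0.841). Without L1 it was 2.04, with an edgeR unadjusted p of 0.014. It was called in 2 of 18 other settings, voom with quality weights and no filter on low genes.

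ENSPANG00000019415, on chromosome 12 from 102656396 to 102669647, had the next highest difference. Its level in low LDL-C baboons went from 191 to 5.04 CPM in L1, from 21.7 to 11.7 in L2 and from 6.87 to 6.75 in L3. The high LDL-C baboons went from 5.96 to 8.59 CPM (H1), from 7.75 to 13.6 (H2) and from 10.8 to 26.5 (H3). L1 on chow was again the highest library, and the change of L3 was close to 0, so the low LDL-C baboons did not move alike. The difference of 3.07 (SE 1.09, unadjusted p = 0.016, edgeR adjusted p = 0.797) was 1.38 without L1, where its unadjusted p was 0.074. It too was called in 2 of 18 other settings, voom with quality weights and no filter on low genes.

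ENSPANG00000016129, on chromosome 14 from 13217904 to 13231878, had the lowest difference and the lowest p of all members. The low LDL-C baboons went from 158 to 246 CPM in L1, from 58.0 to 136 in L2 and from 86.2 to 179.9 in L3. The high LDL-C baboons went from 148 to 88.7 CPM in H1, from 99.8 to 29.3 in H2 and from 91.5 to 48.3 in H3. On chow the phenotypes overlapped, at 101 ± 51.7 CPM in the low and 113 ± 30.6 CPM in the high group (SD, n = 3), while on the HCHF diet each low LDL-C baboon was above each high LDL-C baboon, at 187 ± 55.7 against 55.4 ± 30.3 CPM. The fitted change was 0.96 in the low and -1.13 in the high group, and the difference was -2.09 (SE 0.49, unadjusted p = 0.0011, edgeR adjusted p = 0.262). It lay between -2.38 and -1.79 under 18 other settings with an unadjusted p under 0.05 in each, and it was called in 3 of them, DESeq2, voom with quality weights and no filter on low genes.

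ENSPANG00000020191, on chromosome 16 from 66553148 to 66570368, came next in the lower direction. In L1, L2 and L3 its level went from 22.8 to 50.4, from 19.9 to 22.5 and from 24.4 to 65.1 CPM. In H1, H2 and H3 it went from 24.7 to 22.5, from 30.0 to 9.42 and from 22.9 to 20.7 CPM. The chow levels of all 6 baboons lay close together, and L3 and H2 on the HCHF diet were the 2 ends, while L2, H1 and H3 hardly moved. The difference was -1.58 (SE 0.57, unadjusted p = 0.017, edgeR adjusted p = 0.832).

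**Figure D2:**
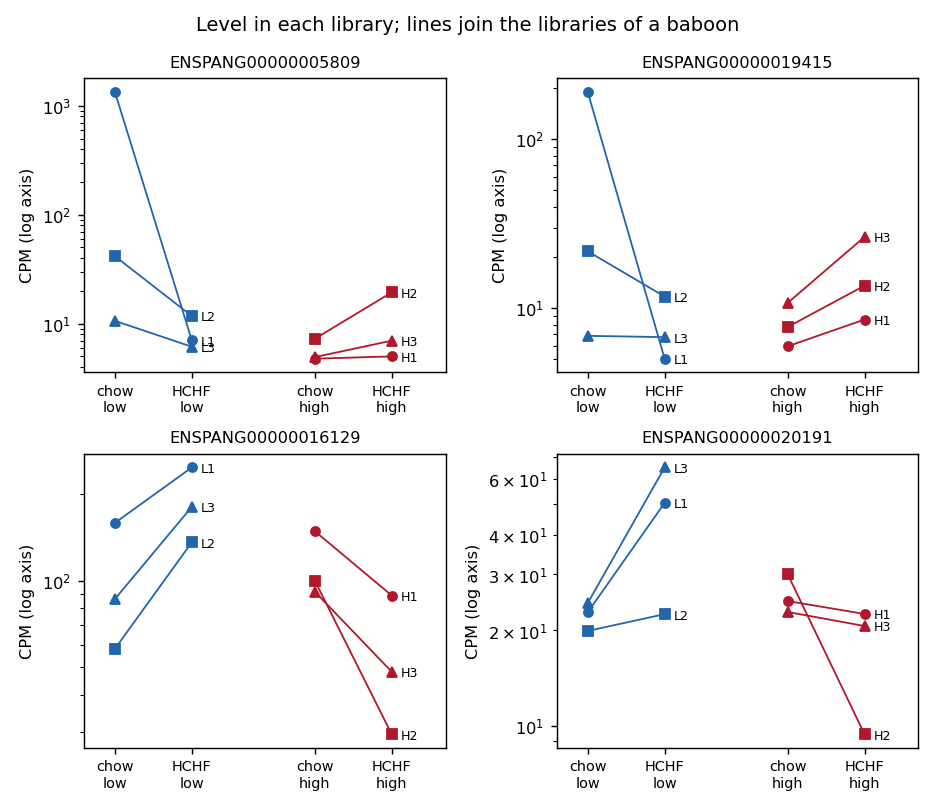
Level (CPM, log axis) in each library, chow then HCHF, of the 4 genes named by ID, with a line for each baboon, low LDL-C in blue and high LDL-C in red. The size of the difference of ENSPANG00000005809 rests largely on L1 on chow at 1342 CPM, and it was 2.04 without L1. The lines of ENSPANG00000016129 slope up in all 3 low and down in all 3 high LDL-C baboons.

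The other 8 genes with a higher response in high LDL-C baboons had fitted differences of 1.54 to 2.23 and edgeR adjusted p of 0.476 to 0.979. A gene on chromosome 2 from 20263167 to 20282868 (difference 1.63, SE 0.47) had the lowest unadjusted p among them, 0.0042. It went from 58.5 to 21.1 CPM in L1, 111 to 67.5 in L2 and 24.4 to 16.6 in L3, and from 38.8 to 55.4 in H1, 40.7 to 64.4 in H2 and 35.0 to 68.1 in H3. The levels of the low LDL-C baboons spread far more than those of the high, and each of the 6 moved with its own phenotype. A gene on chromosome 14 from 5899201 to 6005443 (difference 1.55, SE 0.49) did the same, from 42.7 to 15.6, 36.2 to 28.4 and 24.4 to 10.4 CPM in L1 to L3 and from 19.4 to 26.1, 22.3 to 38.2 and 26.4 to 34.6 CPM in H1 to H3. So did a less abundant gene on that chromosome, from 8956677 to 8961145 (difference 1.67, SE 0.56), with changes of -1.62, -0.83 and -0.47 in L1 to L3 and 0.69, 1.26 and 0.13 in H1 to H3.

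In the remaining 5 a baboon of either phenotype went against its group or close to 0. The gene on chromosome 15 from 94153287 to 94160071 (difference 2.23, SE 0.65) rested mostly on the high LDL-C baboons, which went from 12.8 to 20, 15.0 to 63.4 and 15.2 to 78.2 CPM, while L2 and L3 had changes of -0.07 and 0.16. On chow its level was 55.3 ± 15.3 CPM in the low and 14.4 ± 1.34 CPM in the high group (SD, n = 3), so the higher response of the high LDL-C baboons brought them to 53.9 ± 30.2 CPM, near the chow level of the low. A gene on chromosome 2 from 85003268 to 85004195 (1.79, SE 0.57) had changes of -1.12, -2.19 and -0.72 in L1 to L3 and of -0.32 in H3. For the gene on chromosome 15 from 3802036 to 3913534 (1.69, SE 0.58) the change of H3 was -0.06, and for those on chromosome 18 from 50250769 to 50612622 (1.65, SE 0.70) and chromosome 12 from 31530791 to 31556228 (1.54, SE 0.55) the changes of L1 and L2 were 0.32 and 0.04. The chromosome 18 gene had its farthest change in L2, at -2.47, and its difference was 0.86 without L2 (unadjusted p = 0.157), while without both L1 and H3 that of the chromosome 12 gene was 0.78 and that of the chromosome 15 gene from 94153287 was 1.31.

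In the lower direction the other 8 genes had differences of -1.58 to -1.32 and edgeR adjusted p of 0.567 to 0.970. The gene on chromosome 3 from 138853320 to 138907270 (difference -1.54, SE 0.48) went from 79.2 to 153, 29.0 to 54.3 and 55 to 132 CPM in L1 to L3 and from 101 to 89.1, 48.0 to 21.5 and 68.6 to 58.8 CPM in H1 to H3. Its low LDL-C baboons thus moved by similar amounts (0.95, 0.91 and 1.26) from unlike chow levels, and of the high only H2 moved far (-1.16). A gene on chromosome 2 from 41278595 to 41315860 (-1.40, SE 0.46) had the same form, with changes of 1.01, 0.70 and 0.69 in the low and -0.25, -0.51 and -1.04 in the high LDL-C baboons.

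H2 gave the farthest change in several others. Its change was -1.94 for a gene on chromosome 5 from 93127512 to 93429619 (-1.58, SE 0.54) and -2.12 for a gene on chromosome 13 from 64193640 to 64231165 (-1.37, SE 0.55), and in both every baboon moved with its phenotype, though L2 by only 0.03 in the second. Without H2 their differences were -1.19 and -0.86, the second with an unadjusted p of 0.090. For the gene on chromosome 1 from 132130884 to 132134177 (-1.54, SE 0.50) the high LDL-C baboons carried the difference, from 55.1 to 24.7, 31 to 9.42 and 39.0 to 21.2 CPM, and L2 went against L1 and L3. In the last 3 genes 1 baboon was near 0, with L2 at -0.02 on chromosome 1 from 32963659 to 32988932 (-1.36, SE 0.55), H3 at 0.08 on chromosome 15 from 54017560 to 54042218 (-1.33, SE 0.52) and H3 at 0.03 on chromosome 12 from 33835939 to 33902812 (-1.32, SE 0.48). Without L1 and H3 the first of these 3 had a difference of -0.77. Each of the 20 differences kept its sign under all 18 other settings. Since the genes were chosen for separated changes in these same libraries, this is no independent support. Besides the genes given above as called under other settings, several more of the 20 were called under voom with quality weights or with no filter on low genes. The changes of the phenotypes stayed apart for 18 of the 20 genes with no TMM factor and for 17 with totals that also leave out the mitochondrial chromosome.

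**Figure D3:**
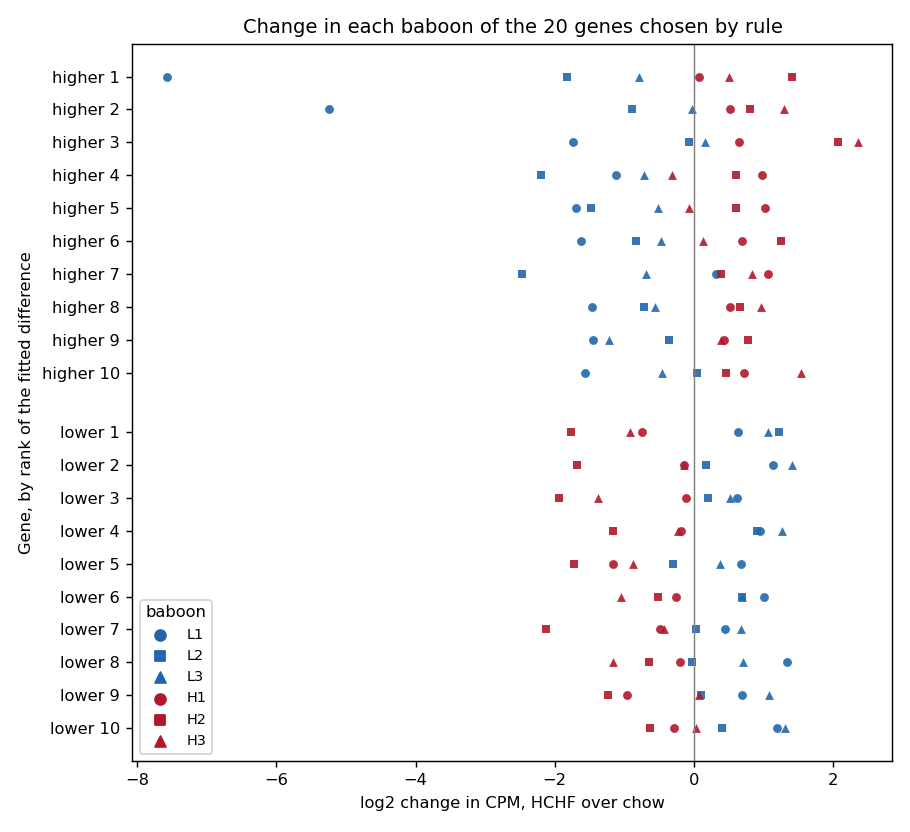
Change on the HCHF diet (log2 of CPM over chow) in each of the 6 baboons for the 10 genes with the highest and the 10 with the lowest difference in response. Low LDL-C baboons are blue and high LDL-C baboons red; the colours do not overlap in any gene because that was part of the choice, and L1 at -7.57 and -5.24 lies far outside the others in the first 2.

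The 3 baboons of a phenotype did not change alike across the members. The SD of the log2 change over the 4871 genes was 0.81 in L1, 0.91 in L2, 0.72 in L3, 0.47 in H1, 0.86 in H2 and 0.56 in H3. A change of 2-fold or more was seen in 17.3% to 19.7% of members in each low LDL-C baboon, in 22.2% in H2, and in only 4.25% and 6.28% in H1 and H3. Across the 4871 genes, which are not independent and share each library's scaling, the changes of L1 and L3 correlated at Pearson's r = 0.64, while L2 correlated with them at -0.48 and -0.30. Correlations between high LDL-C baboons ran from -0.14 to 0.13. L2 was closer to the high LDL-C baboons H1 (0.29) and H3 (0.25) than to its own group. L1 and L3 moved the same way in 78.1% of members, and L2 moved the way of their mean in 32.6%.

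**Figure D4:**
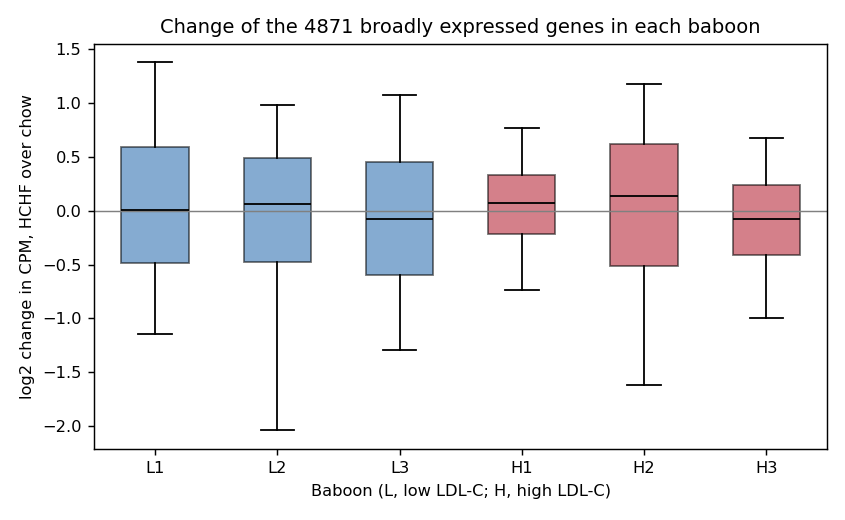
Log2 change on the HCHF diet of the 4871 broadly expressed genes in each baboon; the line is the median, the box the quartiles and the whiskers the 5th and 95th percentiles. Medians are near 0 in all 6, and the spread is widest in L1, L2, L3 and H2 and narrowest in H1.

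The number of members at an unadjusted p under 0.05 turned on L2. Without L2 there were 838 members (17.2%) at an unadjusted p under 0.05, 395 with a higher and 443 with a lower response in high LDL-C baboons, against 13% of all genes fitted, and edgeR called 10 members (7 higher, 3 lower) at adjusted p of 0.195 to 0.197, beside 0.604% of all genes. L2 moved the way of L1 and L3 in 112 (13.4%) of these 838. Of the 73 genes seen with all baboons, 62 were among the 838. Without L1 the counts were 22 higher and 11 lower with 18 of the 73 kept, without L3 they were 31 and 16 with 25 kept, and without H1, H2 or H3 they were 26 to 40 higher and 29 to 42 lower with 31 to 36 kept. Leaving out both L1 and H3, in which the share of the 2 genes moved farthest, gave 39 higher and 14 lower with 15 of the 73 kept. All 73 kept their sign in each of these fits, which reuse the libraries that the 73 were picked from.

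The 10 members called without L2 had differences of 1.77 to 2.47 in size, and 1 of the 10 was at an unadjusted p under 0.05 with all baboons. In each of the 10, L2 moved against L1 and L3. They were seen after the baboon was left out and are given as a description. The lowest p among them was on chromosome 11 from 48876830 to 48893635, with changes of -1.91 in L1 and -1.39 in L3 but 0.79 in L2, and of 0.57, 0.09 and 0.63 in H1 to H3. A pair that lie near each other on chromosome 16, from 22972053 to 22976475 and from 23016984 to 23022589, had similar changes, with -1.67 and -2.13 in L1, 1.22 and 1.03 in L2 and -1.67 and -1.61 in L3. A gene on chromosome 17 from 6581615 to 6586752 went the other way, with 1.56 in L1, 0.90 in L3, -3.65 in L2 and -0.68, -2.15 and -1.07 in the high LDL-C baboons.

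Genes of the mitochondrial chromosome had a lower fitted response in the high than in the low group, with no member called. That chromosome carries genes for subunits of the respiratory chain and for the ribosomal and transfer RNAs of the mitochondrion, and it was the only gene list that the files allowed, as a set taken from the chromosome column. Of its 38 genes in the files, 34 were in the fit and 21 are members, 6 of them under 100 bases long. All 21 had a fitted difference below 0, with a median of -0.75 and a range of -1.28 to -0.27, beside a median of 0.03 for all members. The 21 genes share each library's scaling and are not independent, so counts among them are not counts of separate observations. By unadjusted p 1 of the 21 passed 0.05, where 4.69% of all genes fitted did, and 0 were called in edgeR, DESeq2, limma or voom (3 in DESeq2 and 2 in voom had an unadjusted p under 0.05).

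That 1 gene lies on the mitochondrial chromosome from 15374 to 15442. It went from 42.4 to 60.4 CPM in L1, from 36.2 to 85.1 in L2 and from 20.6 to 60.8 in L3, and from 29.2 to 38.3 in H1, 62.5 to 42.4 in H2 and 39.9 to 35.5 in H3. Its difference was -1.19 (SE 0.49, unadjusted p = 0.033, edgeR adjusted p = 0.972). The most abundant member lies from 5332 to 6901, and its difference of -0.79 was smaller than its standard error of 0.88. Its changes of 0.70, 1.37 and 1.16 in L1 to L3 did not overlap those of 0.62, 0.26 and -0.03 in H1 to H3. Members from 7786 to 7993 and from 7947 to 8628 overlap, as do those from 9890 to 10187 and from 10180 to 11558, so their reads may be shared.

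Summed over the 21 genes, the level went from 309626 to 512463 CPM in L1, from 263399 to 477053 in L2 and from 159639 to 395512 in L3. In high LDL-C baboons the sum went from 220797 to 277890 CPM in H1, from 218281 to 296071 in H2 and from 301206 to 320663 in H3. All 6 sums were higher on the HCHF diet, and the low LDL-C baboons moved farther. The median change over the 21 genes was 0.64, 0.85 and 1.41 in L1 to L3 and 0.24, 0.23 and 0.16 in H1 to H3, and 11 of the 21 did not overlap between the phenotypes, beside 6.34% of all members and 8.60% of all genes fitted.

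This gap between single baboons depended on the scaling. With library totals that leave out only the 2 genes and no TMM factor, the median change was 0.12, 1.40 and 0.87 in L1 to L3 and 0.13, -0.05 and 0.25 in H1 to H3, so L1 lay among the high LDL-C baboons, and 1 of the 21 genes did not overlap. The mitochondrial share of the counts outside the 2 genes rests on these same totals with no TMM factor. It went from 35.4% to 40.7% in L1, 15.9% to 42.2% in L2, 19.2% to 32.6% in L3, 26.3% to 30.8% in H1, 26.2% to 29.1% in H2 and 33.9% to 38.4% in H3. The fitted difference stayed below 0 for all 21 genes under most settings, with 19 under quantile normalization and without L3, and 20 without L1 and with no term for the baboon. L2 on chow, the library with the fewest counts outside the 2 genes, had the lowest mitochondrial share.

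**Figure D5:**
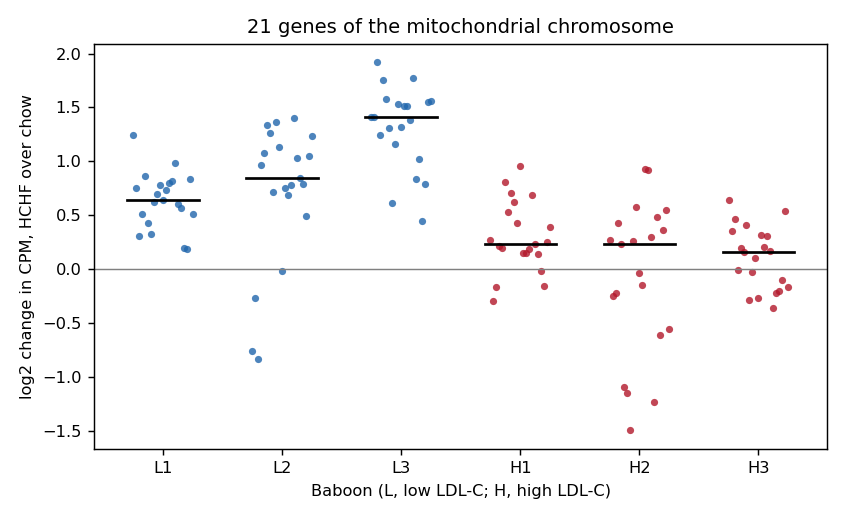
Log2 change on the HCHF diet of the 21 broadly expressed genes of the mitochondrial chromosome in each baboon, with TMM scaling; each point is a gene and the line is the median. Medians are 0.64 to 1.41 in the low and 0.16 to 0.24 in the high LDL-C baboons, a gap that with no TMM factor L1 no longer shows (0.12).

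The 73 members at an unadjusted p under 0.05 were spread over expression levels, and few were among the most abundant. Of the 73 genes 20, 22, 22 and 9 came from the 4 bins of mean level, from the lowest (8.62 to 30.4 CPM) to the highest (93.5 CPM and above), with about equal numbers of members in each. The median standard error was 0.51 to 0.57 in all 4 bins. The change of 4 baboons differed by genomic span. In H2 the median change was 0.46 in the bin of members with the shortest span (up to 9167 bases) and -0.49 in that with the longest (53964 bases and above), and L1 went from 0.56 to -0.11 and L3 from 0.36 to -0.26, while L2 went from -0.24 to 0.16. In H1 and H3 the medians of the 4 bins of span stayed within 0.03 to 0.13 and -0.16 to 0.04. The median difference in response ran from -0.05 to 0.13 over the 4 bins of span.

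Changes did not overlap for 6.34% of all members (155 higher and 154 lower), beside 8.60% of all genes fitted (3.86% higher and 4.74% lower). By nuclear chromosome, such members lay mostly in the higher direction on chromosomes 19 and 20. Their totals, 16 of 379 and 14 of 214 members, were a smaller share than the 8.60% of all genes fitted. On chromosome 19, 14 members had a higher and 2 a lower response in the high group, out of 379, and on chromosome 20 the counts were 13 and 1 out of 214. On chromosome 5 they were 2 higher and 8 lower out of 130, and on chromosome 1, which has the most members (514), 12 and 20. The high LDL-C baboons themselves were not alike there, since the median change of the members on chromosome 19 was 0.64 in H2 and -0.44 in H3. These chromosomes were picked after their counts were seen, and over all members the balance of higher and lower moved with the scaling.

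Genes just inside and just outside the limit of 10 counts had like values, which for neighbouring counts says little about the rule. The 272 members whose lowest library held 10 counts had a median difference of 0.00386 with 10 at an unadjusted p under 0.05, and the 347 genes whose lowest library held 9 counts had a median of 0.00469 with 9. Both shares at that p were above the 1.5% of all members. With 5 or more counts in each library there were 6869 members with 71 higher and 63 lower, and with 50 or more there were 1162 with 3 and 4. Scaling also moved the counts. With no TMM factor 14 members were higher and 8 lower at that p, with quantile normalization 27 and 67, and with totals that also leave out the mitochondrial chromosome 3 and 22, so the share of higher members went from 53.4% to 63.6%, 28.7% and 12%. The median difference of all genes moved by 0.12, -0.12 and -0.09 under these settings, and no member was called under any of these 3.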

How the data were processed

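RNA sequencing libraries (poly-A selected, paired-end) of 12 buffy coat samples were analysed. The authors, whose processing notes name CASAVA 1.8, aligned trimmed reads with STAR 2.3.1j to the Ensembl transcriptome of PapAnu2, and deposited expected counts per transcript from Partek's expectation maximization. These expected counts were summed by gene and rounded to whole numbers. The interaction was fitted on all 12586 genes whose mean CPM reached 1 with edgeR 4.0.16 (TMM, glmQLFit, glmQLFTest, two-sided) in R 4.3.3, with a term for each baboon and 4 residual degrees of freedom, and p-values were adjusted over all genes fitted. The p limit of 0.05 and the false discovery rate of 20% follow the methods of the study. limma 3.58.1 and DESeq2 1.42.0 served as alternatives. Chow and HCHF libraries were paired by the animal in the labels. Deviations of the libraries of a baboon from their group means correlated at 0.088 (L2) to 0.38 (H1) across all genes fitted and at -0.03 (L2) to 0.50 (H1) across the members. The 20 genes described singly were the 10 highest and 10 lowest differences at an unadjusted p under 0.05 without overlap between the phenotypes, and printed IDs were limited to 4 because the files give no symbols. Members, lists and tests were chosen with earlier results of these data known. The script was tested on simulated data. Replicates are separate animals. Counts per transcript depend on how reads shared by similar genes were split.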

Additional observations from a re-analysis of the deposited data

Results flagged for a closer look

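In 11 of the 20 genes described singly, every baboon of a phenotype moved one way on the HCHF diet and every baboon of the other the opposite way. Their fitted differences in response were tested in edgeR and, with all 6 baboons and the filter on low genes, did not pass an adjusted p under 0.20. In 5 of them all high LDL-C baboons went up and all low LDL-C baboons down, namely ENSPANG00000005809 (4.0) and ENSPANG00000019415 (3.07), the genes on chromosome 14 from 8956677 to 8961145 (1.67) and from 5899201 to 6005443 (1.55), and the gene on chromosome 2 from 20263167 to 20282868 (1.63). In the other 6 the low LDL-C baboons went up and the high LDL-C baboons down. These were ENSPANG00000016129 (-2.09), ENSPANG00000020191 (-1.58) and the genes on chromosome 5 from 93127512 to 93429619 (-1.58), chromosome 3 from 138853320 to 138907270 (-1.54), chromosome 2 from 41278595 to 41315860 (-1.40) and chromosome 13 from 64193640 to 64231165 (-1.37). Since the genes were chosen for changes that do not overlap, this pattern was part of how they were found, and 86 of the 4871 members show it. No share of all genes with this pattern was taken. Some of the moves were close to 0 and their sign rested on the scaling. L3 changed by -0.02 in ENSPANG00000019415, with 11 counts on each diet. H1 changed by 0.07 in ENSPANG00000005809, while its counts went from 16 to 14. L2 changed by 0.03 in the gene on chromosome 13.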

How the results depend on the processing

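Counts in this paragraph are members at an unadjusted p under 0.05, higher then lower, in the order difference in response (39 and 34), low LDL-C response (65 and 123) and high LDL-C response (44 and 59). With no TMM factor the difference gave 14 and 8, with 14 higher in low and 10 and 39 in high. Quantile normalization with limma gave 67 lower for the difference, 114 higher in low and 94 lower in high. Voom with quality weights gave 267 and 225, 513 and 596, and 94 and 120, and it called 23 for the difference and 654 in low. No filter gave 65 higher for the difference and 115 lower in high, with 12, 23 and 16 called. DESeq2 called 1 for the difference and 6 in low. A rule of 5 counts in each library gave 71 and 63, 105 higher in low and 100 lower in high, and 50 counts gave 3 and 4, 16 and 25, and 12 and 9. Totals without the 2 genes and the mitochondrial chromosome, chosen after seeing the data, gave 3 and 22, 12 lower in low, and 10 and 15 in high. At p under 0.01 the difference had 4 and 4. With no replicate block the difference had 28 and 14, and 38 were lower in high. Without L1 and H3 the difference had 14 lower, 9 were higher in low and 1 was called in high. Leaving out 1 baboon in turn gave 22 to 395 and 11 to 443 for the difference (0 to 10 called), 2 to 577 and 39 to 553 in low (0 to 565 called), and 15 to 91 and 42 to 146 in high (0 to 1 called). Without L2 and with members counted anew (6848, chosen after seeing the data) there were 11 called, with 463 and 494, 620 called in low with 673 and 666, and 107 and 199 in high. Of the 21 mitochondrial genes 0 passed that p with no TMM factor and without L1 and H3, 2 with voom, 3 with DESeq2, 4 with totals without that chromosome and 0 to 7 when 1 baboon was left out. Shares over all genes are not given for the low and high counts of these settings, so those counts are a description only. Where counts moved, the cause was not tested.

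No reversal of the direction of the 20 genes was seen under any setting, though all reuse the libraries that the genes were chosen from. Depth outside the 2 most abundant genes, 915087 counts in L2 on chow, limits which genes are members, and 3 baboons a phenotype limit the smallest difference called.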
